A study of Mus musculus with 2 samples.

Results

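The cells described here are wild-type mouse corneal epithelial cells in mitotic phase, which numbered 769 of the 8229 corneal epithelial cells in the wild-type library (9.35%, exact 95% interval 8.72% to 9.99%). They were chosen by their transcripts. A barcode was kept with at least 500 genes, at least 1000 unique molecular identifiers (UMIs, counted RNA molecules) and at most 20% mitochondrially encoded UMIs, and 10154 wild-type barcodes passed. A corneal epithelial cell had at least 30 UMIs of Krt5, Krt14 and Krt15 together and at least 60 UMIs of Krt12 per 10000 UMIs of the cell. A member also had at least 5 raw UMIs of Ube2c, Ccnb1, Plk1 and Cenpf together. The study profiled cornea and limbus of mice labelled wt and Pax6 +/- by droplet single-cell RNA sequencing. The anterior segment was freed of lens, retina, iris, trabecular tissue and most conjunctiva, and was dissociated with liberase and trypsin. The series text names 2 mice of each genotype, whereas the files hold 1 library per genotype, so whether mice were pooled cannot be told. Sex, age, strain and the nature of the Pax6 allele are not given.

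Members were set against 7910 non-cycling cells of the same library, which had at least 60 UMIs of Krt12 per 10000. These cells held under 5 raw UMIs both of the 4 mitotic markers and of the S-phase markers Hist1h1b, Hist1h2ap and Rrm2 together. A further 99 corneal cells had at least 5 S-phase marker UMIs and under 5 mitotic ones, and are called S-phase cells. With 1 library there are no replicate samples, and cells of 1 library are not replicates, so no test could be made and every difference is a description of this library. The contrast also chose the cells, so its cell cycle genes describe the group and are not independent findings about it.

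The corneal epithelium is a stratified sheet in which division takes place mainly in the basal layer and daughter cells move up and differentiate. A dividing cell copies its DNA in S phase and then builds up cyclin A and B with the kinase Cdk1. In mitosis the chromosomes are condensed and attached through kinetochores to a spindle of microtubules. The spindle checkpoint holds back the anaphase promoting complex until all chromosomes are attached. That complex then marks cyclin B and securin for destruction, after which the chromatids part and the cell divides by cytokinesis. Because transcripts of these genes build up through G2 and persist into early G1, the rule can include cells of G2 and of mitotic exit as well as mitosis.

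Of the 4 marker genes, Ube2c encodes the ubiquitin-conjugating enzyme that works with the anaphase promoting complex, Ccnb1 is cyclin B1, Plk1 is a kinase of mitotic entry and spindle assembly, and Cenpf is a kinetochore protein. Members had a median of 16 UMIs of the 4 genes together, with quartiles of 8 and 43 and a highest value of 144. Ube2c was found in 90.0% of members with a median of 6 UMIs, and Cenpf in 96.9% with a median of 8. Ccnb1 was found in 67.0% and Plk1 in 57.7%, each with a median of 1 UMI. All 4 genes were found together in 349 members (45.4%), and 51 members (6.63%) held UMIs of 1 of the genes alone. Ube2c lies on chr2:164769898-164778822, Ccnb1 on chr13:100778650-100786570, Plk1 on chr7:122159439-122169873 and Cenpf on chr1:189640606-189688086 of GRCm38.

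The threshold of 5 UMIs cut a continuous range. At a sum of 5 stood 79 cells, of which 51.9% held a UMI of Top2a, a DNA topoisomerase of cycling cells, and 27.8% one of Cdk1. The 85 cells at a sum of 4 held Top2a in 49.4% and Cdk1 in 15.3%. Among the 6356 corneal cells at a sum of 0, the shares were 6.83% and 2.56%. Cells just inside and just outside the threshold were close in Top2a, and these shares are at full depth.

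Members held more UMIs than the non-cycling cells. The median was 16520 UMIs and 4437 genes in mitotic-phase cells, 16935 UMIs in S-phase cells, and 10312.5 UMIs and 3306 genes in non-cycling cells. Mitochondrially encoded UMIs had a median share of 1.44% in mitotic-phase cells and 1.60% in non-cycling cells. After every cell was thinned to 5000 UMIs before the threshold, 409 of 6690 corneal cells (6.11%, interval 5.55% to 6.71%) reached 5 marker UMIs. The libraries shared 40 barcodes, 3 of them among the members. Doublets were not removed, and without the 5% of barcodes with the most UMIs the share of members was 8.70%.

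Genes the rule did not use were then described in the same cells. The groups were set apart by mitotic markers, so the mitotic lists are no independent check of the label. Without the rule genes, the 134 genes of the 7 lists on mitosis described below gave a median of 2.53% of the UMIs of a mitotic-phase cell (quartiles 1.25% and 4.05%, lowest 0.453%, highest 7.38%). The median was 1.41% in S-phase cells and 0.492% in non-cycling cells. The 5 corneal epithelial markers outside the rule, among them Pax6 and Aldh3a1, were present in members, with a median log2 ratio of 0.04 over non-cycling cells. Markers of immune cells summed to 0.613 CPM (the usual scaling of a gene's UMIs by the group's total, here without mitochondrially encoded genes) in mitotic-phase cells and 4.15 CPM in non-cycling cells, with Ptprc, Lyz2, Csf1r, Cd3e and Nkg7 at 0 in the members. Blood vessel markers summed to 2.73 and 4.31 CPM, with Cdh5 and Emcn at 0 in the members. Keratocyte markers summed to 38.8 CPM in mitotic-phase cells and 169.9 CPM in non-cycling cells, and 284.9 CPM in 219 non-epithelial cells of the library. Markers of lymphatic endothelium, mural cells and Schwann cells summed to 81.5, 124 and 119 CPM in mitotic-phase cells and 66.5, 126 and 141 CPM in non-cycling cells, against 1557 to 4536 CPM in the non-epithelial cells. The S-phase cells held 61.8 CPM of immune markers, and the part of these in comparisons with S-phase cells was not tested.

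Many genes of the G2 and M programme share short promoter elements, the cell cycle genes homology region (CHR) and the CCAAT box, which are bound by the DREAM and MuvB complexes and by NF-Y, whereas E2F sites are typical of S-phase genes. The stretches below show these letters upstream of the 4 rule genes and of Cdc20, Cdk1 and Top2a, which are described later. Capitals mark CHR (TTTGAA or TTCGAA) and CCAAT on either strand. Each line gives 120 bases, 5′ to 3′ on the gene's strand, from the RefSeq promoter table of build GRCm38.p6. Each ends right before the RefSeq start, except that Ube2c ends at base 2 and Ccnb1 at base 55 before it. GENCODE places the outermost start further upstream than RefSeq in Ube2c (31 bases), Ccnb1 (84), Cdk1 (26) and Cdc20 (9).
Ube2c, chr2:164769808-164769927, plus strand: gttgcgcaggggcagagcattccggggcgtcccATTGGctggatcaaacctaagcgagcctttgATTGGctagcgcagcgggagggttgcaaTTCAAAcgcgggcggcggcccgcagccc
Ccnb1, chr13:100786541-100786660, minus strand: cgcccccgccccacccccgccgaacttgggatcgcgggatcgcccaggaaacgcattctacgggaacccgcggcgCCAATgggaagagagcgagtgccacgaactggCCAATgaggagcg
Plk1, chr7:122159315-122159434, plus strand: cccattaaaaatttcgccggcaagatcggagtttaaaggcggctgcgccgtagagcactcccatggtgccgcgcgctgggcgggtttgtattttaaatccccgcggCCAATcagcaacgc
Cenpf, chr1:189688087-189688206, minus strand: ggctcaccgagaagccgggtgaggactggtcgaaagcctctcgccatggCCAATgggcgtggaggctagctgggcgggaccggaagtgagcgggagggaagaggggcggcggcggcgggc
Cdc20, chr4:118437344-118437463, minus strand: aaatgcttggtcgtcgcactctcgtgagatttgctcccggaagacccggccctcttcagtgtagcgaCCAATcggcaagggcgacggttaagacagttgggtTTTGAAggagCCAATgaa
Cdk1, chr10:69352913-69353032, minus strand: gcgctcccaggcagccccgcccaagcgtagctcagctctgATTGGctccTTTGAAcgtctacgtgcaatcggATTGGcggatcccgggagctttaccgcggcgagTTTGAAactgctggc
Top2a, chr11:99024190-99024309, minus strand: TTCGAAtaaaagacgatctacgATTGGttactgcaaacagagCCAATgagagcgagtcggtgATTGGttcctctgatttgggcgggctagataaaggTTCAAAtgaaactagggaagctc

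In these stretches, CHR letters stood upstream of the RefSeq start in Ube2c, Cdc20, Cdk1 and Top2a. The match in Ube2c and 1 of the 2 in Cdk1 lay after the GENCODE start. In Plk1 and Cenpf the CHR letters lay after the start, and the Ccnb1 window held none. CCAAT stood in all of the stretches. The table gives windows of 250 bases before to 50 after a start, and held 88 of the 107 genes of the mitotic lists that were at least 2-fold higher in members, rule genes included. Their 100 windows held CHR in 62 and CCAAT in 70 cases, against 19.2% and 37.4% of all 32851 windows. Both motifs together were found in 49 of the 100 windows, against 7.52% of all windows. An E2F motif (TTTCCCGC, TTTGGCGC, TTTCGCGC or TTTGCCGC, either strand) was in 10 of them, against 2.26% of all. In the list of G1/S and DNA replication genes, 32 windows held CHR in 3 (9.38%), CCAAT in 19 (59.4%) and E2F in 12 (37.5%). CCAAT was also in 52.6% of ribosomal protein windows and in 48.1% of those of mitotic list genes not 2-fold higher. A match is a description of letters and not of a bound site, and motifs may overlap. Tpx2, Aurkb, Ccna2, Pbk and Kif20a had no entry.

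Of 6531 genes with at least 20 CPM in mitotic-phase or non-cycling cells, 332 (5.08%) were at least 2-fold higher in mitotic-phase cells and 137 (2.1%) were at least 2-fold lower. A gene is called higher or lower below by this size rule alone. Intervals after a ratio are exact 95% intervals from the UMI counts and cover counting error only. The median log2 ratio of all 9857 genes with at least 5 CPM was 0.07. Nothing is read from these counts about the cell cycle lists, since the same contrast chose the cells.

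**Figure D1:**
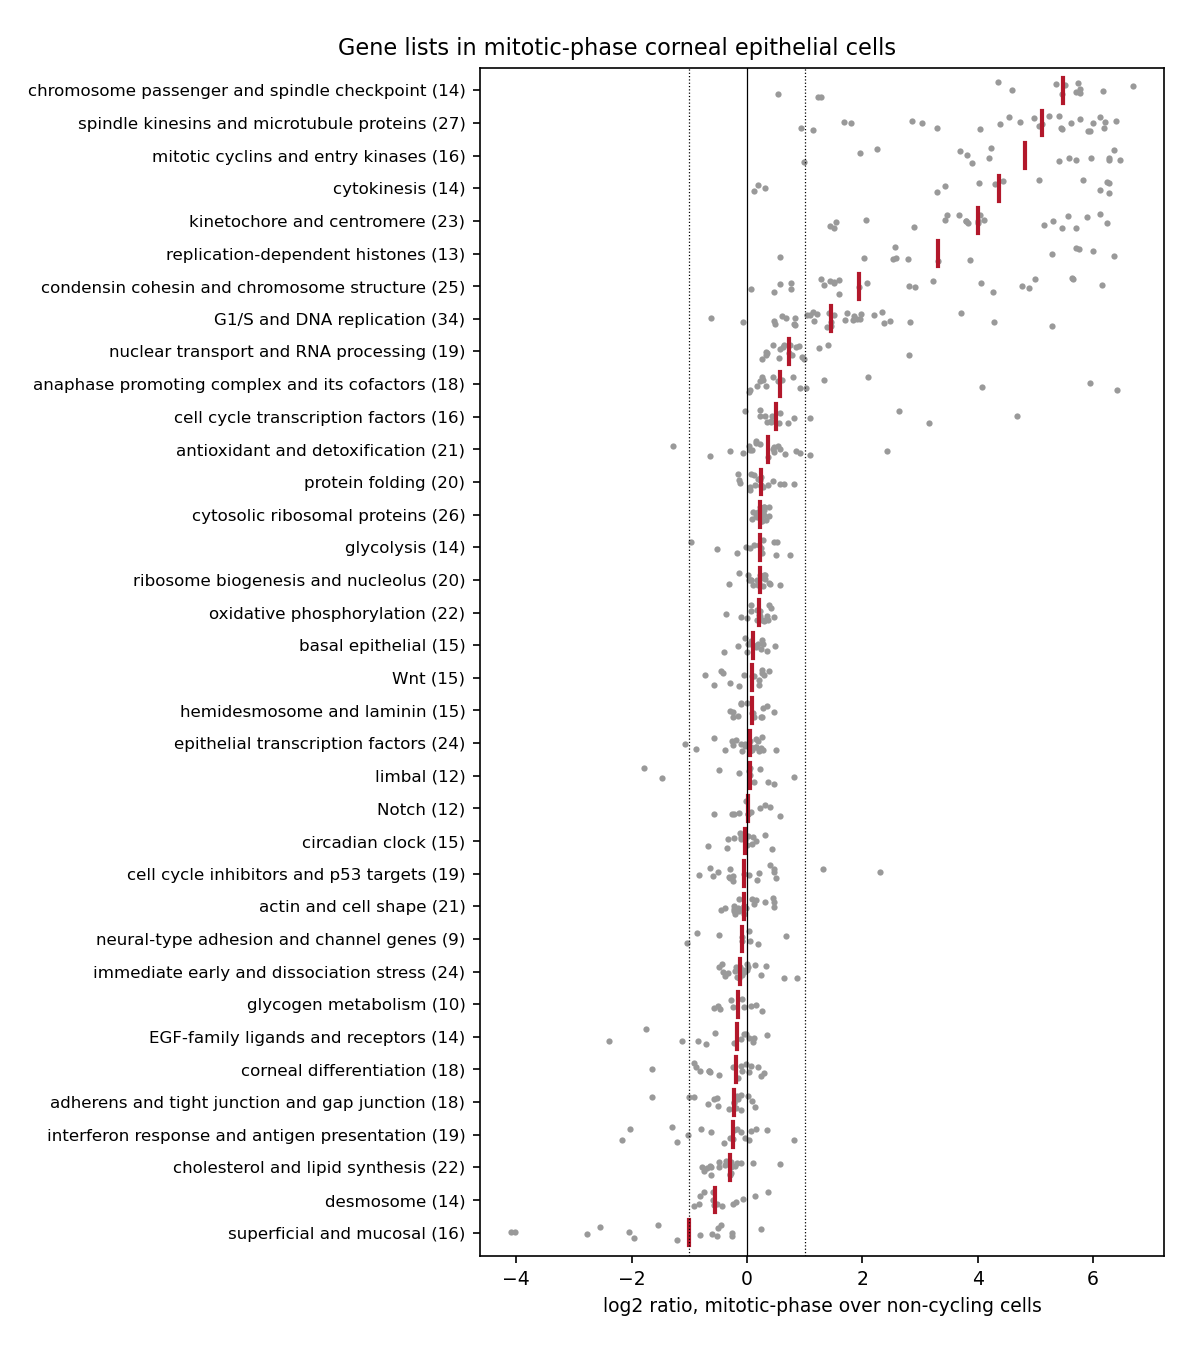
Log2 ratio of each gene (grey points) of the 36 gene lists, mitotic-phase over non-cycling cells of the wild-type library, with the list median as a red bar and the number of genes in brackets. Rule genes are left out, and dotted lines mark 2-fold; medians run from 5.49 for the checkpoint list to -1.01 for the superficial list, and most lists outside the cell cycle lie close to 0.

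Among the mitotic cyclins and entry kinases, 14 of 15 genes with at least 20 CPM were higher and none lower. The median log2 ratio was 4.82 over the 16 genes with at least 5 CPM. Cdk1, the kinase that drives entry into mitosis, stood at 240.2 CPM in mitotic-phase cells and 3.09 CPM in non-cycling cells, a 77.9-fold difference (69.1 to 88.1). Its per-cell median was 1.43 UMIs per 10000 in members and 0 in non-cycling cells. The cyclins Ccna2 and Ccnb2 stood at 152 and 204 CPM in mitotic-phase cells and at 1.96 and 3.93 CPM in non-cycling cells. Cdc25c, a phosphatase that removes the inhibitory phosphates from Cdk1, was 88.5-fold higher at 34.8 against 0.394 CPM. Aurka, the kinase of spindle poles, was 42.5-fold higher. Wee1, which adds those inhibitory phosphates, stood at 55.9 and 28.1 CPM, a ratio of 1.99 just under the 2-fold limit.

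The chromosome passenger and checkpoint list had 13 of 14 genes higher and a median of 5.49, the highest of the 36 lists. Aurkb, the kinase of the passenger complex, had the highest ratio of any gene with at least 50 CPM outside the rule, at 64.8 against 0.628 CPM (103-fold, 79.3 to 137). Its partner Birc5 (survivin) stood at 312 CPM in mitotic-phase cells and 4.33 CPM in non-cycling cells. The checkpoint kinases Bub1 and Ttk were 54.4-fold and 45.7-fold higher, and Mad2l1, which binds and blocks Cdc20, 24.1-fold. Bub3, another checkpoint protein, was already at 106 CPM in non-cycling cells and differed less, by 2.34-fold. Zwint was not called, at 46.7 against 32.1 CPM.

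The anaphase promoting complex split by role. Its activator Cdc20 was 85.2-fold higher (76.0 to 95.8), at 288 CPM in mitotic-phase cells and 3.38 CPM in non-cycling cells. Espl1 (separase, which cuts cohesin) was 61.8-fold higher, Fbxo5 (the inhibitor Emi1) 16.8-fold, Ube2s (a ubiquitin-conjugating partner) 4.29-fold and the second activator Fzr1 2.53-fold. Of the core subunits, Anapc15 was called at 2.04-fold, while the others lay between 1.02-fold for Anapc2 and 1.89-fold for Anapc11. The list median was 0.57 with 6 of 18 genes higher. Pttg1 (securin), the separase inhibitor, stood at 111 CPM in mitotic-phase cells and 98.6 CPM in non-cycling cells, a ratio of 1.13 (1.07 to 1.19). When cells were thinned to 5000 UMIs, 38.6% of 733 mitotic-phase cells held a Pttg1 UMI, against 37.1% of 6041 non-cycling cells and 30.5% of the 59 non-epithelial cells of that depth.

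All 18 kinetochore and centromere genes with at least 20 CPM in either group were higher. A gene could pass this floor by its level in mitotic-phase cells alone. The median log2 ratio over the 23 genes with at least 5 CPM was 3.998. Ska1 and Nuf2, which couple kinetochores to microtubules, were 75.9-fold and 69.4-fold higher. Cenpa, the histone that marks centromeres, stood at 259 CPM in mitotic-phase cells and 5.86 CPM in non-cycling cells, and Cenpe, a kinetochore motor, at 284 and 5.44 CPM. Among genes of the inner kinetochore, Cenpc1 and Cenpq were 2.86-fold and 2.70-fold higher. These inner genes stood at 22.5 and 16.4 CPM in non-cycling cells already, and had the smallest ratios of the 18.

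Spindle kinesins and microtubule proteins were higher in 25 of 26 genes, with a median of 5.12. Hmmr, Kif11 (the motor that separates spindle poles) and Nusap1 stood at 163, 131 and 202 CPM in mitotic-phase cells, against 1.93, 1.78 and 2.78 CPM in non-cycling cells. Stmn1, a microtubule destabiliser, was among the most abundant at 792 against 25.1 CPM. At 5000 UMIs, 86.6% of mitotic-phase cells held Stmn1, against 9.14% of non-cycling and 10.2% of non-epithelial cells. Tubulins, the building blocks of microtubules in resting cells too, differed by less. Tubulin and histone genes have near-identical copies, so the split of reads among them is uncertain. Tubb5 stood at 1079 CPM in mitotic-phase cells and 131 CPM in non-cycling cells, Tuba1b at 437 and 125 CPM, and Tubb4b, the exception of the list, at 859 and 450.0 CPM (1.91-fold).

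In the cytokinesis list 11 of 14 genes were higher, with a median of 4.36. Cep55, which acts at the final cut between daughters, was 76.1-fold higher and Anln (anillin) 56.5-fold, at 306 against 5.43 CPM. Prc1, which bundles the central spindle, stood at 388 and 11.6 CPM. The subunits of centralspindlin, Racgap1 and Kif23, differed by 10.9-fold and 9.79-fold. The septins Sept7 and Sept9, cytoskeletal proteins that also serve in resting cells, had ratios of 1.09 and 1.14.

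Chromosome structure genes were higher in 19 of 24, with a median of 1.93, and the list split between its complexes. Condensin, which compacts mitotic chromosomes, had Ncapg at 71.2-fold, Ncaph at 29.7-fold and Smc2 at 19.2-fold. The cohesin core differed by less, with Smc1a at 1.70-fold, Smc3 at 1.49-fold and Stag2 at 1.05-fold. Top2a stood at 668 CPM in mitotic-phase cells and 13.3 CPM in non-cycling cells, and Mki67 (Ki-67) at 547 and 11.1 CPM. Mki67 had quartiles of 2.22 and 9.52 UMIs per 10000 in members, whereas its upper quartile in non-cycling cells was 0. The chromatin proteins Hmgb2 and H2afz were high in both groups, at 1536 and 2507 CPM in mitotic-phase cells and 165 and 831 CPM in non-cycling cells.

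**Figure D2:**
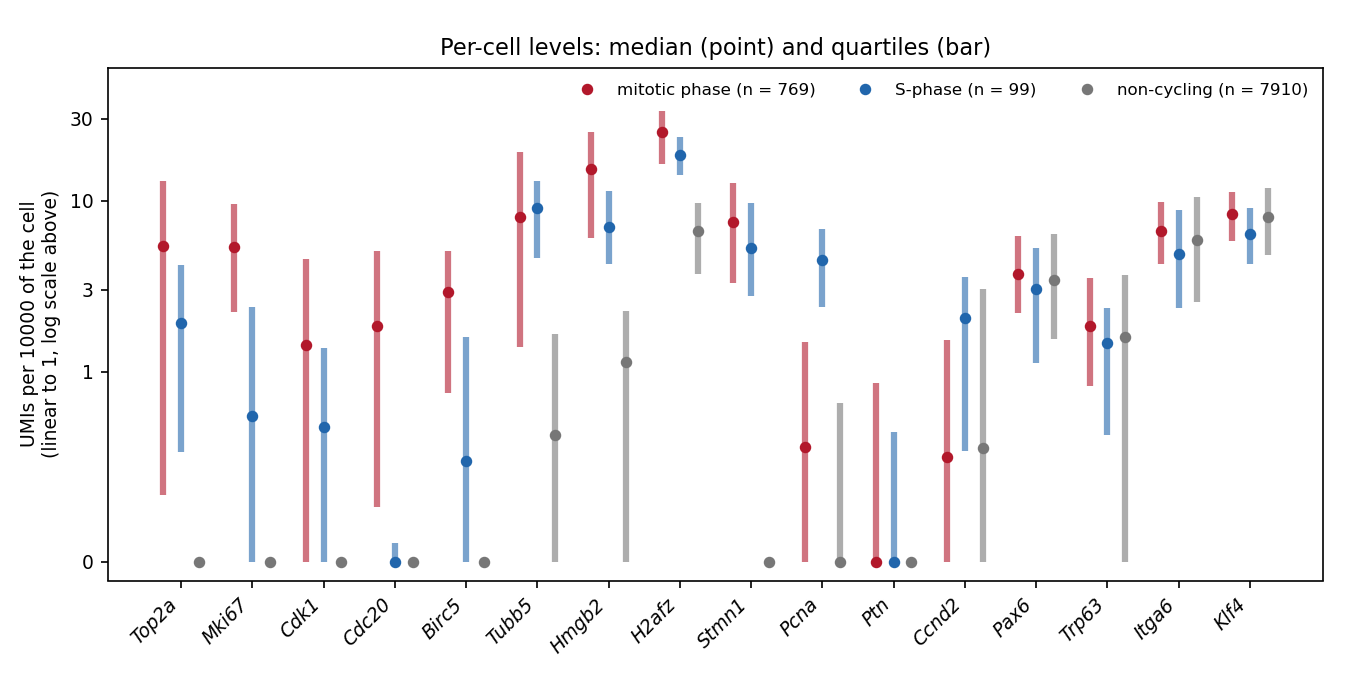
Per-cell levels (UMIs per 10000 of the cell) of 16 genes in mitotic-phase, S-phase and non-cycling cells, as the median (point) and quartiles (bar) over cells of the wild-type library; the axis is linear to 1 and logarithmic above. The mitotic genes at the left have medians of 0 in non-cycling cells, while the epithelial regulators at the right overlap in all 3 groups.

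Among the cell cycle transcription factors, 4 of 12 genes were higher. Foxm1, an activator of G2 and M genes, stood at 21.7 CPM in mitotic-phase cells and 0.851 CPM in non-cycling cells (25.5-fold, 19.9 to 33.1). Lin9, a MuvB subunit, was 6.22-fold higher, the repressor E2f8 8.87-fold and the pocket protein Rbl1 2.14-fold. The MuvB subunits Lin54 and Lin52 had ratios of 1.76 and 1.63, and the NF-Y subunits Nfya, Nfyb and Nfyc ratios of 0.974, 1.33 and 1.28, all under 2-fold. Of 16 cell cycle inhibitors and p53 targets, 2 were higher and none lower. These were the Cdk4 and Cdk6 inhibitors Cdkn2c, at 77.0 against 15.6 CPM, and Cdkn2d, at 133 against 53.3 CPM. Cdkn1a (p21) stood at 669 CPM in mitotic-phase cells and 829 CPM in non-cycling cells, and Cdkn1b (p27) at 173 and 130.1 CPM.

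Genes of G1/S and DNA replication were higher in 16 of 22, with a median of 1.46. Pclaf, a partner of the replication clamp, led this list at 39.1-fold (248 against 6.34 CPM), and the clamp itself, Pcna, stood at 133 and 62.3 CPM. The D cyclins, which respond to growth signals in G1, did not share this pattern. Ccnd1 stood at 657 CPM in mitotic-phase cells and 688 CPM in non-cycling cells. Ccnd2 was the lowest of the list at 117 against 181 CPM, a ratio of 0.647 (0.615 to 0.680).

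Members differed widely among themselves. In 234 of the 769 (30.4%, interval 27.2% to 33.8%) the S-phase markers also reached 5 UMIs. Read from the other side, 234 of the 333 corneal cells with S-phase markers (70.3%) were members, against 535 of 7896 corneal cells without them (6.78%). Members with S-phase markers had a median of 20004 UMIs and those without 13515 UMIs, and the part of depth in these counts was not tested.

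When members were ordered by the sum of the 4 marker UMIs, 266 cells had 5 to 9, 166 had 10 to 19, 169 had 20 to 49 and 168 had 50 to 144. S-phase markers reached 5 UMIs in 15.8%, 34.3%, 53.8% and 26.2% of these bins. The share thus was highest in the third bin and lower again in the last, although median depth was highest there (11641, 15039, 18192 and 21059.5 UMIs). Cdc20 stood at 75.5, 176, 270.1 and 625 CPM along the bins and Aurka at 11.1, 24.2, 58.2 and 135 CPM. Top2a stood at 213, 464, 852 and 1148 CPM. Pcna stood at 157, 157, 149 and 71.1 CPM, lowest in the bin with the most marker UMIs. Pttg1 showed no such order, with 106, 116, 104 and 119 CPM. Bins share the rule genes' depth, so these values are a description of a range chosen by its own markers.

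**Figure D3:**
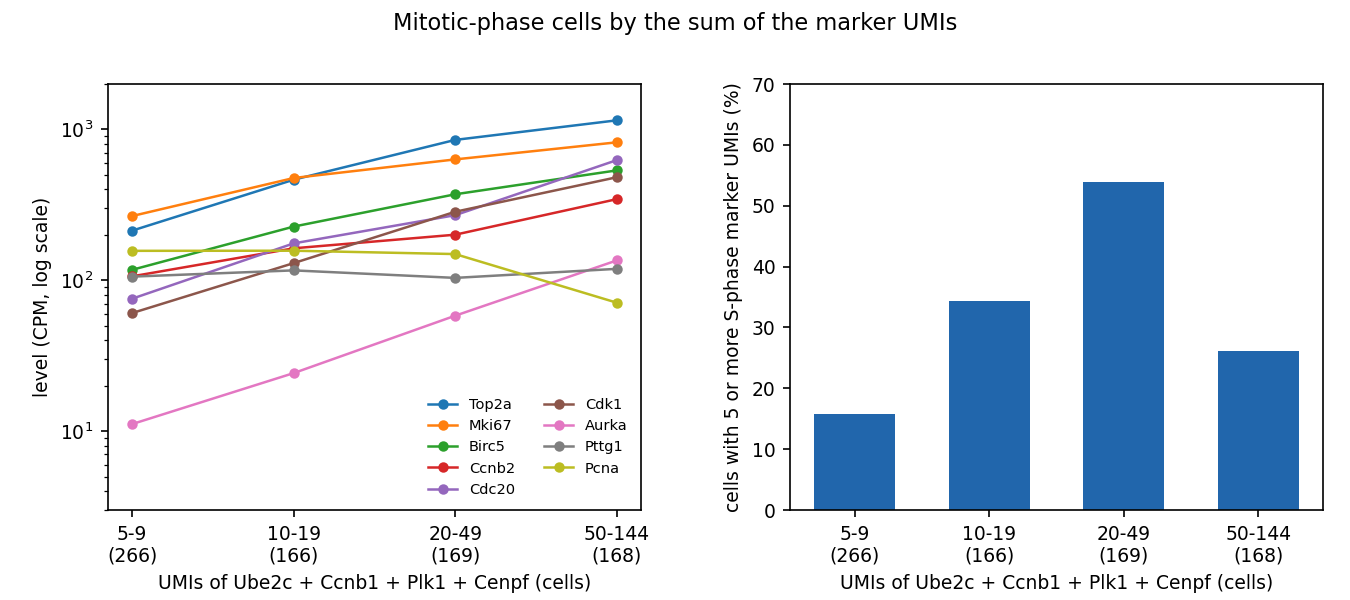
Mitotic-phase cells in 4 bins of their summed marker UMIs (cells per bin in brackets). Left, summed levels of 9 genes (CPM, log axis): Aurka and Cdc20 stand at 11.1 and 75.5 CPM in the lowest bin and at 135 and 625 CPM in the highest, Pttg1 stays between 104 and 119 CPM, and Pcna is lowest in the last bin. Right, percent of cells with at least 5 S-phase marker UMIs, which is highest at 53.8% in the third bin.

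Members with S-phase markers were then set against members without. By the 2-fold rule, 230 of 6570 genes (3.5%) were higher in those with the markers and 16 (0.244%) lower. Of the G1/S and replication genes, 28 of 31 were higher and none lower, with a median log2 ratio of 2.22. Among them Pcna stood at 261 CPM with S-phase markers and 57.3 CPM without, and Lig1, the replicative ligase, at 109 and 11.99 CPM. Histone genes outside the rule were higher in 8 of 10 and lower in 1, with Hist1h1a at 254 against 4.54 CPM. The exception was Hist1h2bc, at 56.1 against 147 CPM. The mitotic lists also held more genes higher with S-phase markers and none lower, with 10 of 20 kinetochore genes higher (median 0.96), 8 of 25 chromosome structure genes (0.66), 4 of 14 checkpoint genes (0.67) and 3 of 16 cyclins and kinases (0.41). Aurkb stood at 105 CPM with S-phase markers and 41.5 CPM without, and Pbk, a mitotic kinase, at 139 and 37.0 CPM. Some genes had ratios under 1 that did not reach 2-fold, and those given here were chosen after their values were seen. Cdc20 stood at 188 CPM with S-phase markers and 347 CPM without, Cenpa at 173 and 309.8 CPM, Ccnb2 at 151 and 235 CPM, and the rule gene Ccnb1 at 90.1 and 157 CPM. Spindle and cytokinesis lists had 2 of 26 and 0 of 14 genes higher and none lower, with medians of 0.37 and 0.12. The 138 genes of the mitotic lists gave a median of 3.85% of a cell's UMIs with S-phase markers and 2.08% without.

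Against the 99 S-phase cells, 142 of 6653 genes (2.13%) were at least 2-fold higher in mitotic-phase cells and 154 (2.31%) lower. The rule again separated these groups by the marker genes. Of the mitotic cyclins and kinases, 11 of 15 were higher, of the checkpoint genes 9 of 14, of the spindle genes 22 of 26 and of the cytokinesis genes 11 of 14. Other mitotic lists differed less, with 7 of 19 kinetochore genes higher and 1 lower (median 0.48), 6 of 24 chromosome structure genes higher (0.62) and 5 of 18 genes of the anaphase promoting complex (0.28). Cdc25c stood at 34.8 CPM in mitotic-phase cells and 0.542 CPM in S-phase cells, where it rested on 1 UMI. Cenpa stood at 259 and 10.8 CPM, Cdc20 at 288 and 16.3 CPM, and Ccnb2 at 204 and 11.9 CPM. Other mitotic genes were already high in S-phase cells, among them Cdk1 at 92.1 CPM, Birc5 at 87.8 CPM and Stmn1 at 518 CPM. Of the G1/S and replication genes, 28 of 35 were lower in mitotic-phase cells and none higher, with a median of -1.67. E2f1 stood at 4.63 CPM in mitotic-phase cells and 49.9 CPM in S-phase cells, Ccne2 (cyclin E2) at 10.8 and 69.4 CPM, and the helicase subunit Mcm3 at 33.9 and 174 CPM. Of 10 histone genes outside the rule, 2 were higher and none lower in mitotic-phase cells, with a median of 0.54.

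Outside the cell cycle, members differed from non-cycling cells in Krt14, a keratin of basal cells, and S-phase cells shared the difference. Its per-cell median was 8.90 UMIs per 10000 in mitotic-phase cells (quartiles 2.56 and 22.0), 6.57 in S-phase cells (1.57 and 20.8) and 1.42 in non-cycling cells (0 and 9.06). Members had to pass a threshold on Krt5, Krt14 and Krt15 together, which 7361 of the 7910 non-cycling cells also passed. All of the corneal cells counted next passed it. Within corneal cells, members made up 108 of 3430 cells with under 1 Krt14 UMI per 10000 (3.15%, interval 2.59% to 3.79%). Their share was 10.4% from 1 to 5 and 14.6% from 5 to 10. It was 14.2% from 10 to 20, 17.0% from 20 to 40 and 17.3% at 40 or more. At 5000 UMIs per cell the shares were 2.01%, 5.87%, 10.3%, 9.33%, 10.8% and 10.7% in the same order, so the step at the low end held at equal depth. Above 5 Krt14 UMIs per 10000 the intervals overlapped. Median depths of the strata ran from 9900.5 to 13593 UMIs.

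**Figure D4:**
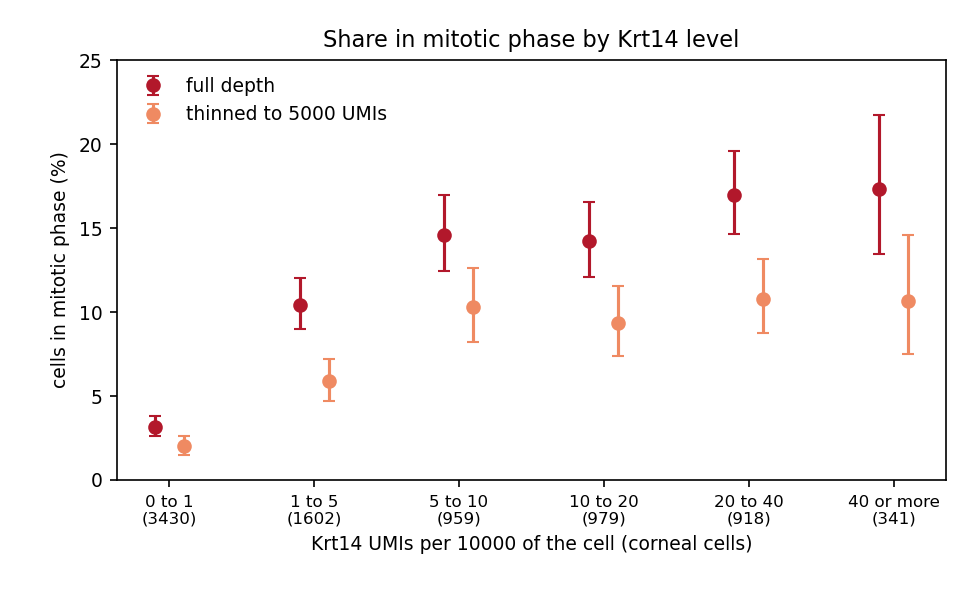
Percent of wild-type corneal epithelial cells in mitotic phase in 6 strata of Krt14 level (cells at full depth in brackets), at full depth and after thinning to 5000 UMIs, with exact 95% intervals that cover counting error only. The lowest stratum stands at 3.15% and 2.01%, and strata from 5 UMIs per 10000 upwards at 14.2% to 17.3% and 9.33% to 10.8%.

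At the high cuts given next, Krt13, Krt15 and Gpha2 each marked few members. At any level, Krt15 was found in 51.1% of members and 44.0% of non-cycling cells. Krt13, a keratin of mucosal and upper-layer cells, reached 10 UMIs per 10000 in 607 corneal cells, of which 14 (2.31%, interval 1.27% to 3.84%) were members. Krt15, a keratin of limbal and basal cells, reached 30 per 10000 in 753 corneal cells, and 32 of these (4.25%, interval 2.92% to 5.95%) were members. Gpha2, a marker of limbal cells, reached 2 per 10000 in 387, with 21 members (5.43%, interval 3.39% to 8.18%). All 3 shares lay under the 9.35% of corneal cells at large. Median depths were 20536 UMIs for the Krt13 cells, 18425 UMIs for the Krt15 cells and 10115 UMIs for the Gpha2 cells.

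Several epithelial lists had medians near 0. None of 14 basal epithelial genes, 14 hemidesmosome and laminin genes or 17 corneal differentiation genes outside the rule was called, with medians of 0.10, 0.09 and -0.20. At like Krt14, defined below, the medians were -0.22, -0.28 and -0.14. Desmosome genes, which hold neighbouring cells together, had a median of -0.55 with none of 14 called, and -0.26 at like Krt14. In the junction list Gjb2, a gap junction connexin, at 39.7 against 80.0 CPM, was 1 of 17 lower, and in the limbal list Krt6a, at 751 against 2085 CPM, was 1 of 10. Pax6, the master regulator of eye development, stood at 421 CPM in mitotic-phase cells and 370.2 CPM in non-cycling cells, and Aldh3a1, an abundant corneal crystallin, at 11201 and 10860.3 CPM. Trp63, the regulator of stratified epithelia, stood at 217 and 206 CPM, and Itga6, a hemidesmosome integrin, had per-cell medians of 6.63 and 5.89 UMIs per 10000. The rule gene Krt12 had a median of 189.6 in members and 255.1 in non-cycling cells. Some transcription factors of upper layers had ratios under 1 that did not reach 2-fold. Among these, Elf3 stood at 319.8 against 586 CPM, Grhl3 at 28.5 against 53.9 CPM and Zfp750 at 140.5 against 209.6 CPM. Klf4 did not share this, with per-cell medians of 8.31 UMIs per 10000 in members and 8.04 in non-cycling cells. The median log2 ratio of the 24 epithelial factors with at least 5 CPM was 0.06. Id1, a target of BMP signals, was the one epithelial factor of 22 that was called, at 117 against 247 CPM. At like Krt14 none of 23 epithelial factors, 10 limbal genes or 17 junction genes was called.

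Genes of superficial and mucosal cells were lower in 7 of 14 and higher in none, with a median of -1.01. The 99 S-phase cells, set against the same non-cycling cells, had 8 of the 14 lower with the same median of -1.01, where 6.88% of all genes were higher and 3.35% lower. Psca, a surface protein, stood at 28.8 CPM in mitotic-phase cells and 469 CPM in non-cycling cells, Muc4, a membrane mucin, at 77.5 and 453 CPM, and Krt13 at 148 and 607 CPM. Outside the lists, the lowest ratios were those of Ifit1bl1 (0.0491), Nccrp1 (0.118) and Asprv1 (0.125), a protease of differentiated keratinocytes, at 183 against 1457 CPM. Krt6b stood at 354 against 1675 CPM. Psca, Asprv1, Muc4, Krt13 and Krt6b had per-cell medians of 0 in both groups, so each was carried by a minority of cells. At 5000 UMIs, Asprv1 was found in 10.8% of mitotic-phase and 22.6% of non-cycling cells. Muc4 was found in 7.91% and 22.0%, Krt13 in 13.1% and 20.3%, and Krt6b in 23.1% and 38.5%. Psca was found in 3.55% of mitotic-phase cells, 9.82% of non-cycling cells and 3.39% of non-epithelial cells at 5000 UMIs. The share in mitotic-phase cells was close to that in non-epithelial cells, but only 59 of the latter had this depth, too few to set a background level. Summed over all cells of a group, Psca stood at 28.8 CPM in mitotic-phase, 7.59 CPM in S-phase and 14.03 CPM in non-epithelial cells. Of the 423 Psca UMIs in members, 243 were in 1 cell. The highest per-cell level of Psca was 49.1 UMIs per 10000 in members and 485 in non-cycling cells. For Asprv1 the highest levels were 122 and 397. Dcn, a keratocyte proteoglycan, was also lower at 16.0 against 85.1 CPM, beside the keratocyte markers given above. The interferon and antigen presentation list had 5 of 19 genes lower, with Ifitm1 at 81.1 against 366 CPM and Isg15 at 41.0 against 95.4 CPM. Of the EGF family, the ligands Areg and Btc were lower, at 20.8 and 10.4 CPM in mitotic-phase cells and 70.01 and 22.7 CPM in non-cycling cells, while the receptor Egfr stood at 335 and 394 CPM. In S-phase cells 4 of the 11 EGF family genes were lower than in non-cycling cells.

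To compare cells of like basal keratin level, cells of both groups were kept with at least 2.56 Krt14 UMIs per 10000, the lower quartile of the members. This left 577 mitotic-phase and 3419 non-cycling cells, so Krt14 then forms part of the rule. Krt14 above the floor and depth were not made equal, and median depths were 16847 and 11623 UMIs. Of 6415 genes, 323 (5.04%) were higher in mitotic-phase cells and 25 (0.39%) lower. The mitotic lists hardly moved, with medians of 4.84 for cyclins and kinases, 5.45 for the checkpoint list and 5.16 for the spindle list. The superficial list had 3 of 11 genes lower and a median of -0.37, the interferon list none of 16 and the EGF list none of 10. Psca remained lower at 6.34 CPM in mitotic-phase cells and 64.9 CPM in non-cycling cells. With both groups at or above the members' median Krt14, a setting added after the data were seen, 26 genes were lower and the superficial median was -0.01. There Asprv1 and Muc4 had log2 ratios of 0.14 and 0.13 and Psca one of -1.93.

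**Figure D5:**
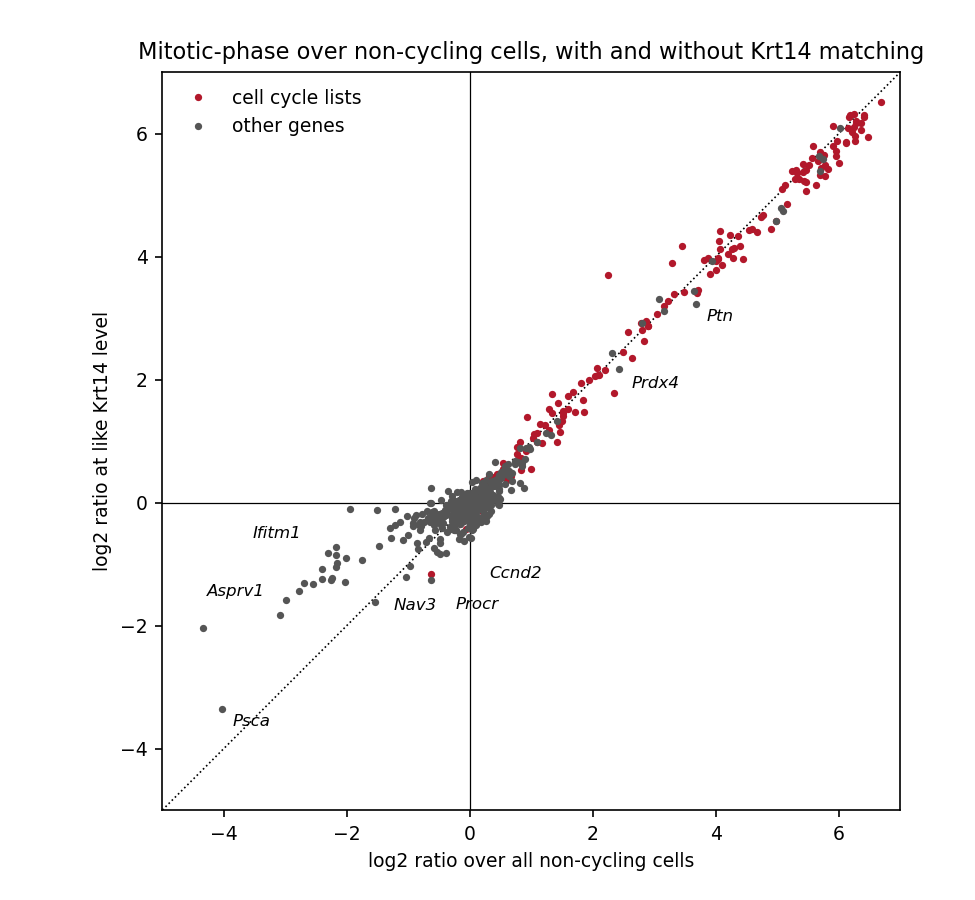
Log2 ratio of 579 list and named genes, mitotic-phase over non-cycling cells, with all cells (horizontal) and with cells of like Krt14 level (vertical); the dotted line marks equal values. Most genes of the cell cycle lists (red) lie along the line, and lower genes such as Asprv1 and Ifitm1 lie nearer to 0 at like Krt14. Procr, Nav3 and Ccnd2, which is in the G1/S list, lie further from 0.

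A small group moved away from 0 when Krt14 was matched. Ccnd2 stood at 118 CPM in mitotic-phase cells and 265 CPM in non-cycling cells of like Krt14, a ratio of 0.445 (0.420 to 0.472), and at 237 CPM in S-phase cells. Procr, the protein C receptor, stood at 33.1 and 79.2 CPM (0.418), and Nav3, a microtubule-binding neuron navigator, at 51.7 and 119.5 CPM (0.433). At the members' median Krt14 their log2 ratios were -1.41, -1.51 and -1.39. Per cell, Ccnd2 had quartiles of 0.00 and 1.52 UMIs per 10000 in members and 0.00 and 3.02 in all non-cycling cells, so the difference lay in the upper part of the range. Non-epithelial cells held 275 CPM of Ccnd2, 137 CPM of Procr and 66.9 CPM of Nav3.

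Outside the cell cycle lists, most of the 12 highest ratios were still those of genes known from division. Esco2, which acetylates cohesin in S phase, was 64.5-fold higher, Shcbp1, which acts at the midbody, 53.3-fold, and the phosphatase Cdkn3 51.7-fold. Cdca3, a mitotic entry factor, stood at 207 CPM in mitotic-phase cells and 4.03 CPM in non-cycling cells. Gas2l3, Dbf4 (the activator of the Cdc7 kinase), Knstrn and Diaph3 were 33.9-fold, 33.3-fold, 31.5-fold and 8.89-fold higher. Lockd, a long non-coding RNA, was 15.4-fold higher.

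Ptn (pleiotrophin), a secreted heparin-binding growth factor, was also among these 12. It lies on chr6:36714929-36810220 of GRCm38. Ptn stood at 61.0 CPM in mitotic-phase cells, 50.4 CPM in S-phase cells and 4.74 CPM in non-cycling cells, a ratio of 12.9 (11.5 to 14.4) over the non-cycling cells. At like Krt14 the levels were 72.2 and 7.71 CPM, and at the members' median Krt14 the log2 ratio was 3.12. Members with S-phase markers had 2.44 times the level of members without. At 5000 UMIs Ptn was found in 22.5% of mitotic-phase cells, 24.7% of S-phase cells and 2.32% of non-cycling cells. Non-epithelial cells also carry it, at 235 CPM and in 18.6% of cells. Of the 354 corneal cells with at least 1 Ptn UMI per 10000, 186 (52.5%, interval 47.2% to 57.8%) were mitotic-phase and 18 were S-phase cells, at a median depth of 12155.5 UMIs. Its highest per-cell level was 11.1 UMIs per 10000 in members and 11.7 in non-cycling cells.

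Most metabolic and biosynthetic lists held few called genes. No gene of the cytosolic ribosomal proteins (26 with at least 20 CPM), oxidative phosphorylation (22), protein folding (20) or ribosome biogenesis (16) was called. Their medians, over genes with at least 5 CPM, were 0.23, 0.22, 0.24 and 0.22. The ribosomal protein median was 0.02 at like Krt14. Cholesterol and lipid synthesis had none of 20 called and a median of -0.30, which was 0.0021 at like Krt14. In S-phase cells over the same non-cycling cells, 6 of 19 of these genes were lower, with a median of -0.72. Nuclear transport and RNA processing had 3 of 19 genes higher and a median of 0.73. S-phase cells shared this, with 5 of 18 higher than in non-cycling cells and a median of 0.70. Kpna2, an importin, stood at 75.7 CPM in mitotic-phase cells and 10.8 CPM in non-cycling cells. Ran, the GTPase of nuclear transport and spindle assembly, stood at 590.3 and 249.6 CPM, and Nup107, a nuclear pore subunit, at 23.8 and 8.95 CPM. Of 18 antioxidant genes 2 were higher and 1 lower, with a median of 0.36. The peroxiredoxin Prdx4 was 5.37-fold higher (36.3 against 6.77 CPM) and Gclm, of glutathione synthesis, 2.14-fold, whereas the glutathione transferase Gsto1 was lower at 2798 against 6833 CPM. At like Krt14 the ratios were 4.48, 1.98 and 0.670. Immediate early and dissociation stress genes gave no call among 23, with a median of -0.11.

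By the same rule the library labelled Pax6 +/- held 480 corneal epithelial cells among 9542 kept, and 22 of these were in mitotic phase (4.58%, interval 2.89% to 6.86%), against 769 of 8229 in the wild-type library. S-phase markers reached 5 UMIs in 19 of the 22, against 234 of 769 wild-type members. The share of S-phase cells went the other way at full depth. They numbered 49 of 480 corneal cells in the Pax6 +/- library and 99 of 8229 in the wild-type library. The mitotic-phase shares alone thus do not tell how many cells were cycling. At 5000 UMIs the mitotic-phase cells numbered 3 of 432 (0.694%) in the Pax6 +/- library and 409 of 6690 (6.11%) in the wild-type library. Median depth of the members was 28119 UMIs in the Pax6 +/- library and 16520 UMIs in the wild-type library. The keratin thresholds kept 5.03% of Pax6 +/- cells and 81.0% of wild-type cells, so these shares rest on different parts of each tissue. With 1 library per genotype and 22 cells, genotype and library cannot be told apart, and no gene was compared.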

How the data were processed

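Droplet single-cell RNA libraries of 1 wt and 1 Pax6 +/- sample were used. The deposited values are raw UMI counts per gene and barcode, made with Cell Ranger 8.0.0 per the file headers, on GRCm38 per the submitters' processing notes. How barcodes were selected before deposit, and whether mice were pooled, is not given in the sources used here. The wt file held 11354 barcodes with 124540296 UMIs and the Pax6 +/- file 10574 barcodes with 131567589 UMIs.

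Barcodes were filtered and grouped by the thresholds stated in the results, with no clustering, doublet caller or ambient RNA correction. UMI counts were summed over the cells of a group and divided by the group's total without mitochondrially encoded genes (CPM). Genes with at least 20 CPM in either group were called at 2-fold, list medians used genes with at least 5 CPM, and a gene with 0 UMIs in 1 group was set to 3 UMIs there. With 1 library per genotype no test was possible. Ratio intervals are exact conditional binomial 95% intervals and share intervals Clopper-Pearson (scipy 1.17.1, numpy 2.4.6, pandas 2.3.3, Python 3.11.15, matplotlib 3.10.9). UMIs and cells are not independent replicates of a condition, so intervals cover counting error only. The interval script was tested on simulated data. Named genes were list members and, among genes with at least 50 CPM, the 12 highest and 12 lowest ratios, the same without the cell cycle lists, and the 8 highest and 8 lowest at like Krt14. Non-epithelial cells for comparison were 219 wt cells. Alternatives were other floors, scalings (edgeR 4.0.16 and DESeq2 1.42.0 factors), depths, thresholds and cell sets. The setting at the members' median Krt14 and the shares by Krt14 level were added after the data were seen. Members and lists were chosen with earlier results of these data known. Promoter windows and gene positions came from RefSeq (GRCm38.p6) and GENCODE (GRCm38) tables.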

Additional observations from a re-analysis of the deposited data

How the results depend on the processing

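The counts of 332 higher and 137 lower genes depended most on the floor for low values: 525 and 256 at 5 CPM, 161 and 75 at 50 CPM, and 2408 and 1183 with no floor. Scaling by DESeq2 size factors gave 300 and 164. With both groups at or above the members' lower-quartile Krt14, 25 genes were lower, and at or above their median Krt14 26 were lower and 344 higher. The share of members was 9.35% at 5 marker UMIs, 11.8% at 3, 6.11% at 10, 6.11% with cells thinned first and 8.70% without the 5% of barcodes with the most UMIs. Of 36 list medians, 0 to 5 had the other sign under each change of scaling, depth, threshold or cell set, 9 at lower-quartile Krt14 and 11 at median Krt14. Those of at least 0.25 in size as reported were cholesterol synthesis (-0.30 as reported, 0.0021 at lower-quartile and 0.13 at median Krt14) and antioxidant genes (0.36 as reported, -0.0062 at median Krt14). The others were smaller, among them at median Krt14 basal epithelial genes (0.10 as reported, -0.30), hemidesmosome genes (0.09, -0.41), protein folding (0.24, -0.035), ribosomal proteins (0.23, -0.0857), ribosome biogenesis (0.22, -0.10) and limbal genes (0.05, -0.13). At median Krt14 the log2 ratios of 9 genes lower over all cells were above 0: Nccrp1 0.15, Asprv1 0.14, Cysrt1 0.37, Muc4 0.13, Enpp3 0.0305, Prss27 0.50, Eps8 0.022, Hopx 0.51 and Krt13 0.0787; the cause was not tested. Of 38 named genes called at 2-fold, 37 or 38 were still called under each planned change of scaling, depth, threshold or cell set, and 28 at median Krt14. Non-cycling cells of like depth moved the median of all genes by 0.11. No paired analysis was possible because each genotype had 1 library and no replicate. The S-phase group of 99 cells and the 22 Pax6 +/- cells limit what small counts can show.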

Other observations

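Without the keratin thresholds, 858 of 10154 kept wild-type cells (8.45%) and 391 of 9542 kept Pax6 +/- cells (4.10%) held at least 5 UMIs of Ube2c, Ccnb1, Plk1 and Cenpf. Spearman's rho of levels per 10000 UMIs was taken across the 769 wild-type mitotic-phase cells. It was 0.60 between Ube2c and Ccnb1, 0.64 between Ube2c and Top2a and 0.40 between Ube2c and Cenpf. With the S-phase marker Hist1h1b, rho was -0.17 for Cenpf, 0.20 for Ube2c and -0.06 for Cdc20. Pearson's r between Ube2c and Hist1h1b was -0.08, of the other sign. Ube2c had a rho of 0.11 with Krt14 and -0.25 with Krt12. These cells share 1 library and the marker threshold, so the values are descriptions.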
